A study of Mus musculus with 7 samples.

Results

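The MRN complex and the signalling pathway that it starts at DNA double-strand breaks were followed through 10 genes: Nbn, Mre11a, Rad50, Atm, Mdc1, Rnf8, Rnf168, Trp53bp1, Chek2 and Rbbp8. They were chosen by name, with earlier results of these data known. Their rows are those of the deposited tables whose gene symbol equals one of these names, and all 10 were found among 53801 genes. RNA sequencing was done on mouse tissue labelled cortical plate, all of strain C57BL/6J. The group at embryonic day 14.5 (E14.5) held 4 libraries, replicates 1 and 4 male and replicates 2 and 3 female, each of genotype Nbs1 fl/+ with a Nestin-Cre transgene. Nbs1 is another name of Nbn, so 1 of the 10 genes was itself floxed on 1 allele in this group, and none of these libraries lacks that allele. The group at 10.5 months, called adult here, held 3 female libraries with a CamK II-Cre transgene, replicates 1 and 3 being Atr fl/+ and replicate 2 Atr +/+. Nestin-Cre acts in neural progenitors and the cells born from them, and CamK II-Cre in excitatory forebrain neurons. Every library therefore carried a Cre transgene, and the ages differed in Cre driver, floxed gene and library kit (without strand at E14.5, stranded in adults) as well as in age, so these cannot be told apart in any comparison of ages below. The total count of a library lay between 32533065 and 43197226 in the embryonic group and between 27327927 and 29996018 in the adult group. No label says that libraries are separate animals. The p-values therefore cover only the variation among these samples, and part of it may be technical.

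A double-strand break is recognised by the complex of MRE11, RAD50 and NBN, which holds the broken ends and brings in the kinase ATM. ATM phosphorylates the histone H2AX beside the break, MDC1 binds that mark, and the ubiquitin ligases RNF8 and RNF168 then modify the chromatin so that 53BP1 can bind. ATM also activates the kinase CHK2, which slows the cell cycle or drives cell death, and CtIP, encoded by Rbbp8, works with the MRN complex to trim the ends for repair by recombination. Inherited mutations in ATM, NBN or MRE11 in humans cause syndromes with neurological disease, among them ataxia telangiectasia and Nijmegen breakage syndrome, which includes a small brain.

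Of the 10 genes, 9 were lower in adults than at E14.5 and Nbn alone was higher, by edgeR's quasi-likelihood test with Benjamini-Hochberg adjustment at 0.05. Across the 20800 genes tested, 86.4% were called in either direction, 44.7% lower in adults and 41.7% higher. That was 9292 lower and 8683 higher, and with total counts as the only scaling 11470 lower and 6751 higher. The falls were graded. Chek2 and Rbbp8 dropped most, and Mdc1, Mre11a and Rnf8 fell to an intermediate depth. Rnf168 and Rad50 changed little, though with total counts only their log2 fold changes, adult over E14.5, were -0.61 and -0.67. In the main fit the median log2 fold change was -0.94 over the 10 genes and -0.08 over all genes tested. A stricter test, which asks for a change beyond 2-fold, called Chek2, Rbbp8, Mdc1 and Mre11a lower (4 of 10, where 22.7% of all genes tested were called lower) and none of the 10 higher (24.6% of all genes).

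In bulk tissue, fewer cells of a type and less RNA per cell cannot be told apart. All 6 marker genes of cycling cells were lower in adults, and their summed level was 1028 to 1223 CPM (CPM: read counts scaled to a common library size after trimmed-mean, TMM, normalisation) at E14.5 and 1.84 to 2.79 CPM in adults. All 6 radial glia markers (1985 to 2058 CPM summed, then 101 to 109 CPM) and all 3 markers of intermediate progenitors (493 to 550 CPM, then 1.34 to 1.82 CPM) fell as well. All 4 oligodendrocyte markers rose, from 29.4 to 32.1 CPM summed at E14.5 to 5483 to 5735 CPM in adults. The 4 markers of cortical identity were present at both ages, at 816 to 892 and 1412 to 1512 CPM summed, with 1 higher and 3 lower in adults. The 5 neuron markers summed to 1736 to 2080 CPM at E14.5 and 7531 to 8028 CPM in adults, with 4 higher and Tubb3 lower (1004 ± 103 to 238 ± 18.3 CPM). The sum in adults was mostly Snap25 and Syt1. The part of these shifts in the changes below was not tested.

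**Figure D1:**
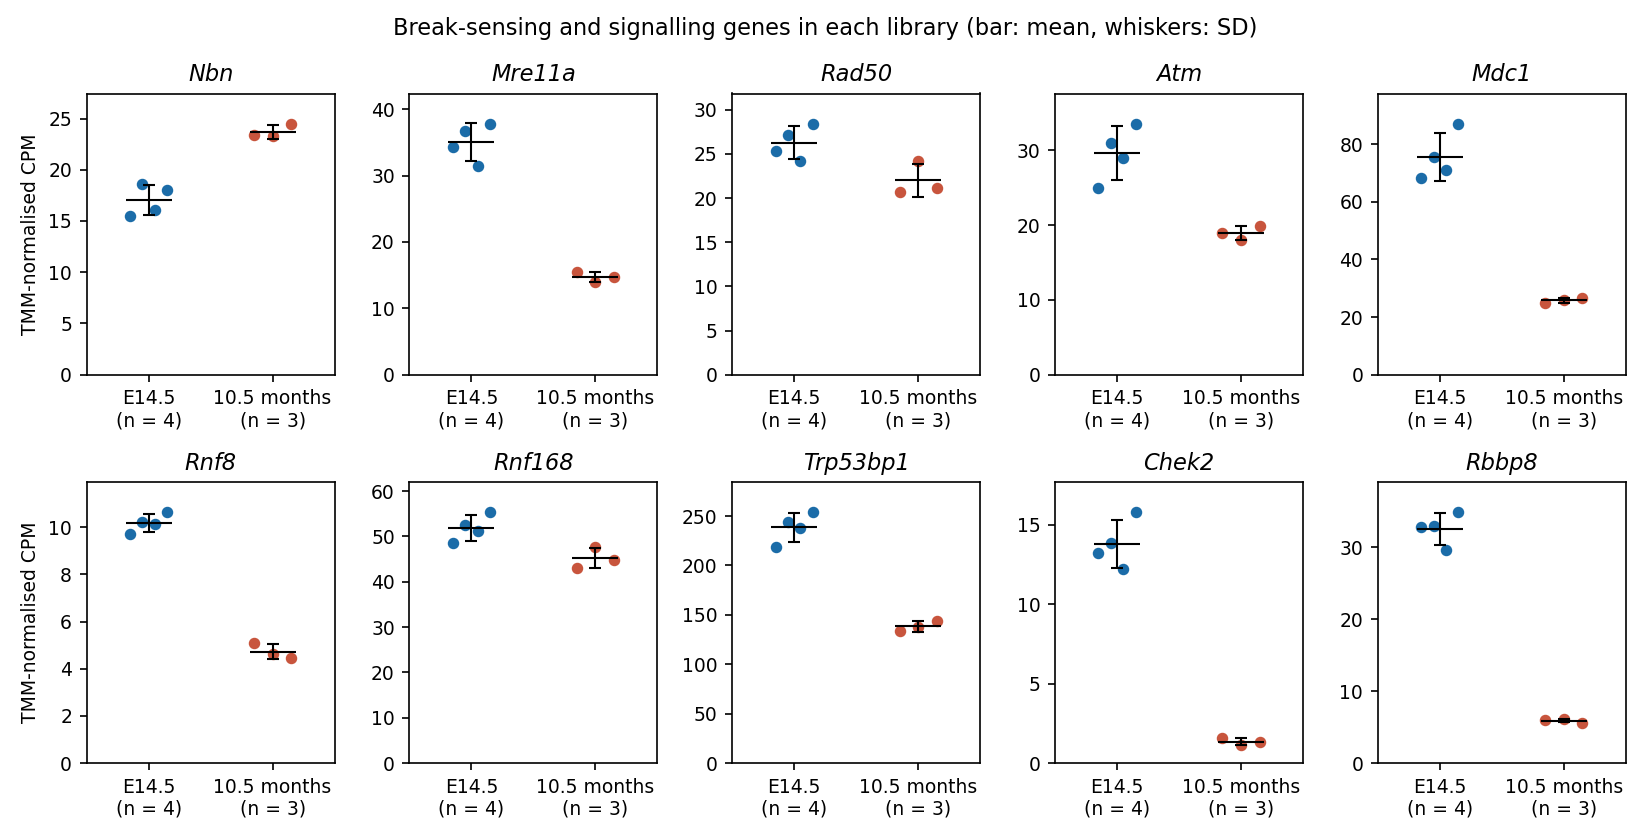
TMM-normalised CPM (y axes, each starting at 0) of the 10 genes in each library, 4 at E14.5 (blue) and 3 at 10.5 months (red), with the mean as a bar and the SD as whiskers. In all 10 panels the libraries of the ages do not overlap, as for 85.3% of all genes tested. Nbn is higher and the other 9 genes are lower in adults, and in deposited RPKM the ages overlap for Nbn.

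The MRN complex itself was considered first. Gene positions are given on GRCm38 from GENCODE M21. Nbn (chromosome 4, 15957925 to 15992589, plus strand) encodes the regulatory subunit that carries the complex to the nucleus and binds ATM. Its level was 15.5, 18.6, 16.1 and 18.0 CPM in E14.5 replicates 1 to 4 and 23.4, 23.3 and 24.5 CPM in adult replicates 1 to 3. On this scale each adult library was above each E14.5 library, as was the case in 1 direction or the other for 85.3% of all genes tested. The other 9 genes were separate in the opposite direction (9 of 10, against 44% of all genes tested). The log2 fold change was 0.48 (edgeR adjusted p = 0.00016, SE 0.078), from 17.0 ± 1.49 CPM (SD, n = 4) to 23.7 ± 0.681 CPM (n = 3).

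This rise rests on the scaling between libraries. In the deposited RPKM, which are scaled by total counts, Nbn was at 7.03, 8.28, 7.13 and 7.96 in the E14.5 libraries and at 7.83, 7.74 and 8.25 in adults. On that scale the ages overlapped for Nbn and for none of the other 9 genes (86.9% of all genes tested had no overlap), with means of 7.60 ± 0.615 and 7.94 ± 0.273 RPKM. With total counts as the only scaling the log2 fold change of Nbn was 0.064 (edgeR adjusted p = 0.45), and total-count scaling also moved the median of all genes from -0.08 to -0.49. On either scale Nbn stood above the median gene. All 4 E14.5 libraries carried a floxed Nbs1 allele with Nestin-Cre and no adult library did, and the count covers the whole gene, so the contribution of that allele cannot be told apart from that of age.

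Mre11a (chromosome 9, 14784654 to 14837123, plus strand) encodes the nuclease of the complex. It had 34.3, 36.7, 31.4 and 37.8 CPM in the E14.5 libraries and 15.5, 13.9 and 14.7 CPM in adults. The lowest E14.5 value was still above the highest adult value by a wide margin. The log2 fold change was -1.25 (edgeR adjusted p = 5.5e-08, SE 0.080). In GENCODE M21, 2.60% of its exon bases lie under exons of Ankrd49 on the opposite strand.

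Rad50 (chromosome 11, 53649519 to 53707319, minus strand) encodes the ATPase that bridges DNA ends through its long coiled coils. Its values were 25.3, 27.2, 24.2 and 28.4 CPM at E14.5 and 20.7, 24.2 and 21.1 CPM in adults. The ages nearly touched, since adult replicate 2, at 24.16 CPM, was just below E14.5 replicate 3, at 24.23 CPM. The log2 fold change was -0.26 (edgeR adjusted p = 0.010, SE 0.080), and the call was lost without adult replicate 1 (-0.21, adjusted p = 0.058) or adult replicate 3 (-0.23, adjusted p = 0.053) and with sex as a covariate (-0.23, adjusted p = 0.053).

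The proportions of the 3 subunit transcripts differed between the ages. A ratio of subunits within a library does not depend on the scaling between libraries, so it was compared on the deposited RPKM by an exact two-sided permutation test over the 35 assignments of libraries to groups of 4 and 3. There were 1.06, 1.19, 1.20 and 1.11 Nbn transcripts per Mre11a transcript, per length, in the E14.5 libraries and 3.54, 3.91 and 3.90 in adults. The Nbn to Mre11a ratio was thus close to even at E14.5 and well above it in each adult library, a difference of 1.73 in mean log2 ratio. For Nbn to Rad50 the values were 1.30, 1.45, 1.41 and 1.34 at E14.5 and 2.40, 2.04 and 2.46 in adults, a difference of 0.74 in mean log2 ratio. For Mre11a to Rad50 they were 1.23, 1.22, 1.18 and 1.21, then 0.676, 0.523 and 0.632, a difference of -0.99. The direction of this last ratio was opposite, with Mre11a above Rad50 in each E14.5 library and below it in each adult library. Each of the 3 ratios separated the ages completely and reached the smallest p that these permutations can give (exact permutation p = 0.029, and p = 0.029 after Benjamini-Hochberg adjustment over the 3 ratios). The 3 ratios share subunits and are not independent. A ratio per length also rests on the transcript length that the authors assigned to each gene, and the kits differed between the ages. All E14.5 libraries, and no adult library, carried a floxed Nbs1 allele with Nestin-Cre, which bears on the ratios with Nbn. The parts of the kit and of that allele cannot be told apart from that of age.

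**Figure D2:**
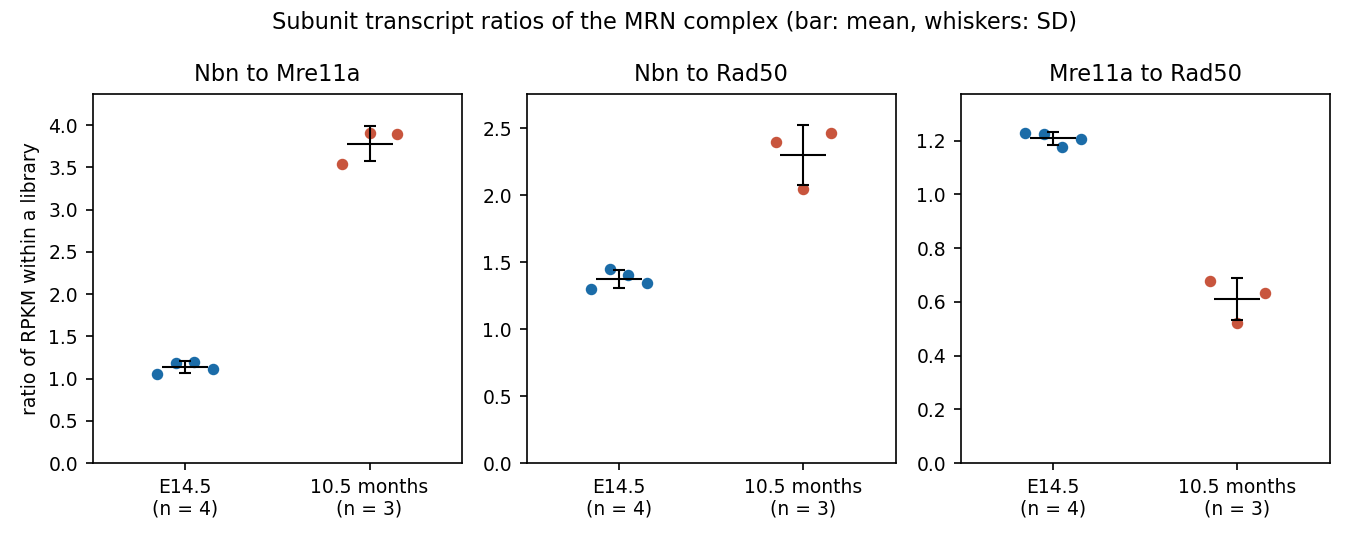
Ratio of deposited RPKM between subunits of the MRN complex within each library (y axes, starting at 0), for 4 E14.5 libraries (blue) and 3 libraries at 10.5 months (red), with mean and SD. The mean Nbn to Mre11a ratio is 1.14 at E14.5 and 3.78 in adults, Nbn to Rad50 1.38 and 2.30, and Mre11a to Rad50 1.21 and 0.610.

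Atm (chromosome 9, 53439149 to 53536740, minus strand) encodes the kinase at the head of the pathway. It was at 24.9, 31.0, 29.0 and 33.6 CPM at E14.5 and at 18.9, 18.0 and 19.9 CPM in adults. The E14.5 libraries varied more among themselves for Atm than for the other genes (coefficient of variation 12.3%), yet the lowest of them was above all adults. Atm had a log2 fold change of -0.64 (edgeR adjusted p = 9e-05, SE 0.098). Under total-count scaling Atm was at -1.06, and under offsets for GC content and gene length at -1.07. Chek2 (chromosome 5, 110839979 to 110874145, plus strand), the kinase that ATM activates, changed most of the 10. Its values were 13.3, 13.8, 12.2 and 15.8 CPM at E14.5 and 1.57, 1.13 and 1.34 CPM in adults, where they rested on 40, 26 and 32 counts. The ages were far apart, and the adult libraries varied among themselves by a coefficient of variation of 16.6%, the highest of the 10 genes. For Chek2 the log2 fold change was -3.35 (edgeR adjusted p = 2.4e-09, SE 0.15), 10.2-fold higher at E14.5, and 5.45% of all genes tested had a log2 fold change as low or lower.

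Mdc1 (chromosome 17, 35841515 to 35859670, plus strand) encodes the adaptor that reads phosphorylated H2AX. It had 68.1, 75.6, 71.0 and 87.1 CPM at E14.5 and 24.7, 25.9 and 26.7 CPM in adults. E14.5 replicate 4 stood above the other E14.5 libraries, and the adults were close together. The log2 fold change was -1.55 (edgeR adjusted p = 1.7e-08, SE 0.086). Rnf8 (chromosome 17, 29614790 to 29644991, plus strand) encodes the first ubiquitin ligase, which binds phosphorylated MDC1. Its values were 9.72, 10.2, 10.1 and 10.6 CPM, then 5.07, 4.64 and 4.47 CPM, with a log2 fold change of -1.10 (edgeR adjusted p = 6.3e-07, SE 0.093). By the test against a 2-fold change Rnf8 was not called (adjusted p = 0.099). Of its exon bases in GENCODE M21, 13.2% are shared with Gm28043 on the same strand. The length behind the deposited RPKM of Rnf8 was 3178 bases, against 11703 exon bases in GENCODE M21. The shared part may therefore be larger among the bases that the authors counted. How they assigned reads in shared exons is not given in the sources used here, so the level of Rnf8 is less certain.

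Rnf168 (chromosome 16, 32277459 to 32301434, plus strand), the second ubiquitin ligase, spreads the mark that RNF8 starts. It was at 48.4, 52.5, 51.1 and 55.4 CPM at E14.5 and at 43.1, 47.7 and 44.9 CPM in adults. Adult replicate 2 lay just below the lowest E14.5 library, so the ages were separate by little. Its log2 fold change of -0.20 (edgeR adjusted p = 0.0095, SE 0.060) was the smallest in size of the 10 under TMM. Under total-count scaling, on logged RPKM and with GC and length offsets (-0.40 for Rnf168), that of Nbn was smaller. The call for Rnf168 was lost when genes with opposite-strand exon overlap were left out (-0.12, adjusted p = 0.083), as was that for Rad50 (-0.18, adjusted p = 0.054). With total counts only, Rnf168 and Rad50 had log2 fold changes of -0.61 and -0.67. Trp53bp1 (chromosome 2, 121193281 to 121271407, minus strand) encodes 53BP1, which binds the marked nucleosomes and restrains end trimming. It had 219, 244, 237 and 254 CPM at E14.5 and 133, 138 and 144 CPM in adults. The ages were far apart, with a log2 fold change of -0.79 (edgeR adjusted p = 2.1e-07, SE 0.058), and 15% of its exon bases lie under exons of Tubgcp4 on the opposite strand. With total counts only the value for Trp53bp1 was -1.20, and with GC and length offsets -1.36.

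Rbbp8, on chromosome 18, encodes CtIP, which stimulates the MRE11 nuclease and starts resection. Its values were 32.8, 33.0, 29.6 and 34.9 CPM at E14.5 and 6.06, 6.07 and 5.64 CPM in adults. All adult values lay within a narrow band far below the E14.5 libraries. For Rbbp8 the log2 fold change was -2.46 (edgeR adjusted p = 2.6e-10, SE 0.083), 5.49-fold higher at E14.5, the second deepest fall after Chek2. Of its exon bases, 3.21% lie under an antisense gene in GENCODE M21. The length behind the deposited RPKM of Rbbp8 was 3867 bases, against 12521 exon bases in GENCODE M21. That share may therefore be larger among the bases that the authors counted.

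**Figure D3:**
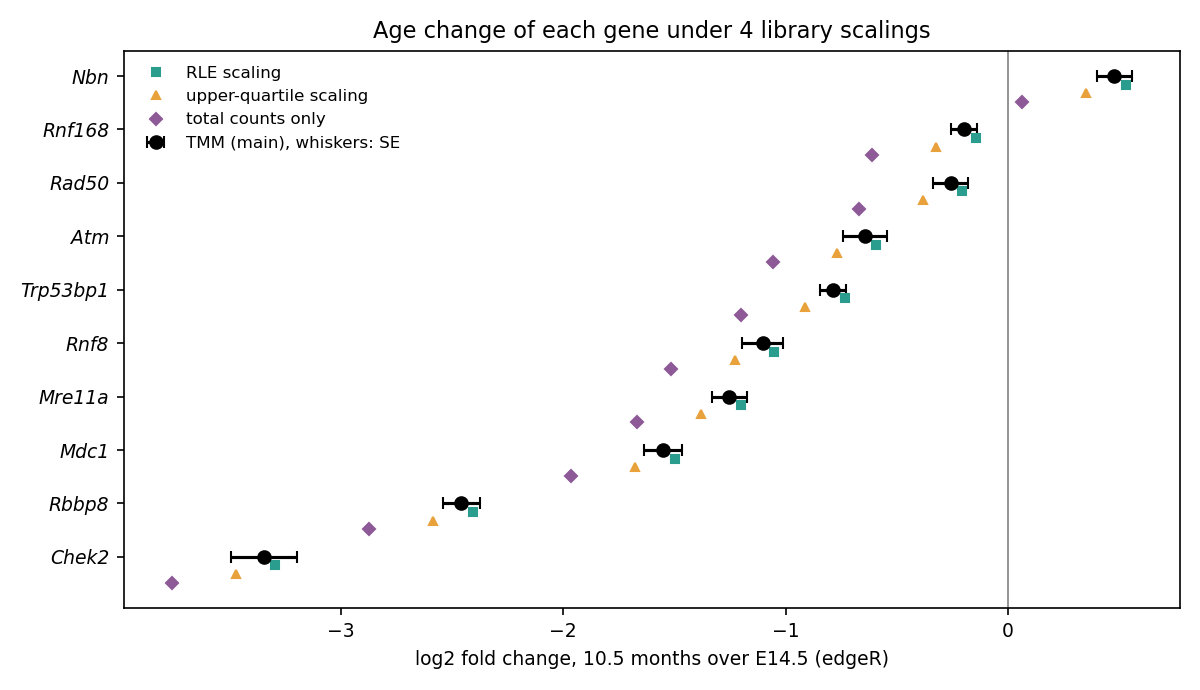
Log2 fold change of each gene, 10.5 months over E14.5 (x axis), with edgeR under TMM scaling (black circles, whiskers: SE) and under 3 other library scalings (coloured marks). The genes keep their order from Nbn to Chek2 under each scaling, while total-count scaling moves them all to lower values and brings Nbn to 0.064.

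Per length, the order of the 10 genes changed with age. At E14.5, Trp53bp1 had the highest mean (19.0 ± 0.985 RPKM), followed by Rnf168 (13.1 ± 0.610), Mdc1 (11.5 ± 1.19), Rbbp8 (9.51 ± 0.653), Nbn (7.60 ± 0.615), Mre11a (6.68 ± 0.531), Rad50 (5.53 ± 0.374), Chek2 (5.18 ± 0.549), Rnf8 (3.62 ± 0.10) and Atm (3.23 ± 0.368). Among neighbours in that order, the libraries overlapped between Rnf168 and Mdc1, Nbn and Mre11a, Rad50 and Chek2, and Rnf8 and Atm, so those pairs are not ranked beyond their spread. In adults, Rnf168 (8.60 ± 0.413 RPKM), Trp53bp1 (8.28 ± 0.362) and Nbn (7.94 ± 0.273) led, with overlap between Rnf168 and Trp53bp1 and between Trp53bp1 and Nbn. A gap followed to Rad50 (3.47 ± 0.281), Mdc1 (2.94 ± 0.125), Mre11a (2.104 ± 0.115), Atm (1.55 ± 0.0834), Rbbp8 (1.30 ± 0.0466), Rnf8 (1.26 ± 0.0804) and Chek2 (0.381 ± 0.0637), where only Rbbp8 and Rnf8 overlapped. Rbbp8 moved from rank 4 to rank 8 and Chek2 from rank 8 to rank 10, while Nbn moved from rank 5 to rank 3. Among protein-coding genes, Chek2 went from percentile 65.2 of mean RPKM at E14.5 to percentile 39.4 in adults, and Nbn from 71.5 to 75.4.

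**Figure D4:**
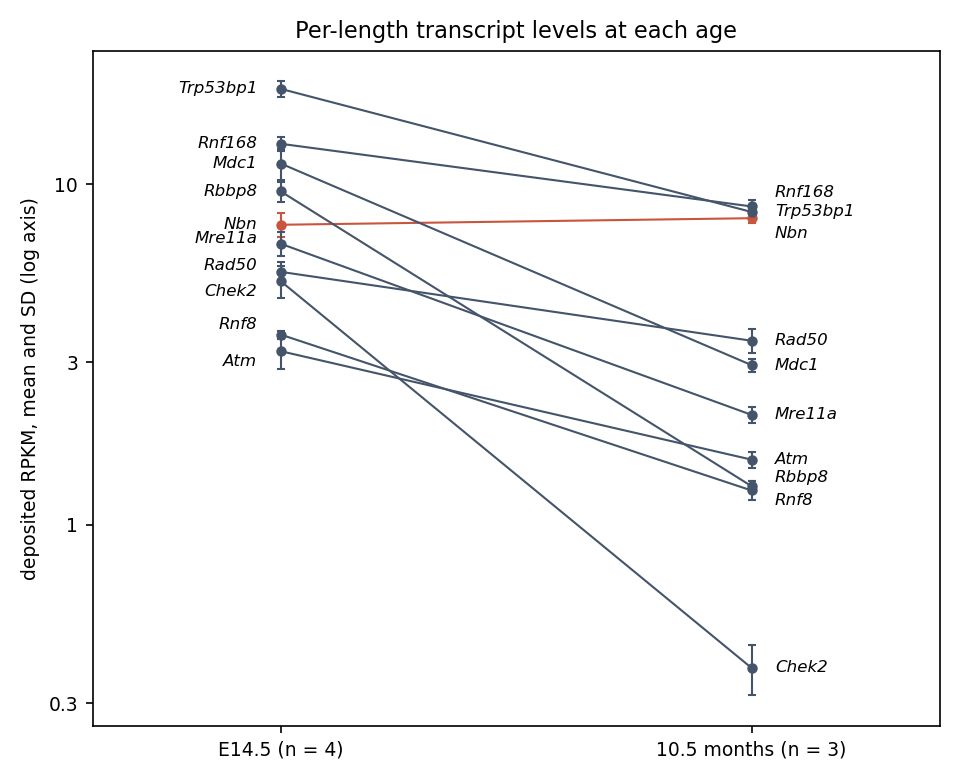
Deposited RPKM of the 10 genes (y axis, log scale) as mean and SD at E14.5 (n = 4) and 10.5 months (n = 3), joined by lines. Nbn (red) is level at 7.60 and 7.94 RPKM while the other lines fall, that of Chek2 most, from 5.18 to 0.381 RPKM.

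Promoter sequences were set beside these changes for the 7 genes with an entry in the RefSeq table of GRCm38.p6 (Mre11a, Atm, Mdc1, Rnf8, Rnf168, Trp53bp1 and Chek2), in windows from 250 bases before to 50 bases after the gene's start. E2F sites, CHR elements and CCAAT boxes are known from promoters of cell cycle genes, and ETS sites and the NRF1 palindrome from promoters of widely expressed genes. An E2F site was searched on both strands as TTTCCCGC, TTTGGCGC, TTTCGCGC or TTTGCCGC and an ETS site as CCGGAAGT. A CHR element was searched as TTTGAA, and the box named CCAAT by the letters of its name, on both strands as well. An E2F spelling was present in 2 of the 7 windows, those of Chek2 and Mdc1, and in 2.27% of all 32851 windows (2.86% of those of protein-coding genes). A CCAAT box was present in 5 of the 7, those of Mre11a, Atm, Mdc1, Rnf8 and Chek2, and in 37.4% of all windows. A CHR element was found for Rnf8 (17.9% of all windows), where it shares a base with a CCAAT box, the ETS site for Rnf168 (3.89%) and the NRF1 palindrome for none (0.971%). Mre11a, also called lower beyond 2-fold, held no E2F spelling, and Rbbp8, the second deepest fall, had no window. The shorter string GCGGGAA, part of the matches in Chek2 and Mdc1, also occurs on either strand in the windows of Rnf168, Atm and Rnf8. Which windows hold an E2F match therefore rests on the exact spelling. A match is a description of letters and not evidence of binding. Shown here are the windows of Chek2, the deepest fall, and Mdc1, which both hold an E2F spelling, and of Rnf168, the smallest change under TMM. Capitals mark all matches, read 5′ to 3′ on the gene's own strand, which is plus for all 3, at chr5:110839733-110840032, chr17:35841248-35841547 and chr16:32277211-32277510. In Chek2 the E2F spelling is on the opposite strand and starts 152 bases before the gene's start, and in Mdc1 it is on the gene's strand and starts 16 bases before it. By GENCODE M21, Hscb starts 202 bases upstream of Chek2 on the opposite strand, so the Chek2 window also holds the start of Hscb.
Chek2: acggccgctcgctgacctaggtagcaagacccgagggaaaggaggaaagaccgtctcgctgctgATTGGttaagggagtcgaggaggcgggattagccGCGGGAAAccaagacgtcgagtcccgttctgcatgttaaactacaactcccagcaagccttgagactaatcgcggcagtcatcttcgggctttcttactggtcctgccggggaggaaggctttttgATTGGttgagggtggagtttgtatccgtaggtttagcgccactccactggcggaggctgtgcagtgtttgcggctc
Mdc1: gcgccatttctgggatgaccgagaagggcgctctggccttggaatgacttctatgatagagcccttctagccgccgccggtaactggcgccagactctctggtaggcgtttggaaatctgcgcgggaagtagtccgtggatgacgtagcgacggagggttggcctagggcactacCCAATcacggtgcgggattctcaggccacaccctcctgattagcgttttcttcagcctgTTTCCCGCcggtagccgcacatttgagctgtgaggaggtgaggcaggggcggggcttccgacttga
Rnf168: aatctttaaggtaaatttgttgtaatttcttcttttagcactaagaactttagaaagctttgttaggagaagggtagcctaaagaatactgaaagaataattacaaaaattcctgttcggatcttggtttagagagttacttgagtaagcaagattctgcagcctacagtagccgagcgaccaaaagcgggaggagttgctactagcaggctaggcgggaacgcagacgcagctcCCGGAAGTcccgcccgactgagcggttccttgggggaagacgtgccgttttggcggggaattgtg

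Among the E14.5 libraries, replicate 4 had the highest CPM for 9 of the 10 genes and replicate 2 for Nbn, and the lowest value was in replicate 1 for 6 genes and in replicate 3 for 4. Over all genes tested, 24% were highest in replicate 4, and 29.3% were lowest in replicate 1 and 22.9% in replicate 3. The values of the 10 genes in a library share its scaling. The highest library was 1.09-fold (Rnf8) to 1.35-fold (Atm) above the lowest. The summed cycling-cell markers had the same extremes, at 1223 CPM in replicate 4, 1202 in replicate 2, 1032 in replicate 3 and 1028 in replicate 1. Replicate 1 also stood apart in other marker lists. Its summed interneuron markers were at 85.6 CPM against 31.3 to 50.8 in the other E14.5 libraries, those of the ganglionic eminence at 5.49 against 1.09 to 1.72, those of erythroid cells at 817 against 554 to 685, and those of endothelium at 110 against 80.4 to 94.1. The part of any of these lists in the spread of the 10 genes was not tested. By the labels, the mother of replicate 1 was plugged on a different day from the mothers of replicates 2 to 4. In all 4 cases the dates given allow less time between plug and dissection than the stage named, and the stage is used as labelled.

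Sex did not separate these genes at E14.5. With 2 male and 2 female libraries, none of the 10 passed edgeR's quasi-likelihood test (0 of 10, where 0.0497% of 20134 genes were called), none had an unadjusted p under 0.05 (2.93% of all genes did), and DESeq2 called none either. For all 10 the sexes overlapped, while 25.4% of the genes tested had no overlap between the 2 male and 2 female libraries. The log2 fold changes, female over male, ran from -0.16 for Chek2 (SE 0.13) to 0.049 for Nbn (SE 0.12), with SEs of 0.085 to 0.14 over the 10 genes, so differences of that size were not detectable with these libraries. A missed threshold does not show that the sexes were alike.

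Among adults, replicate 2 alone had wild-type Atr, so its genotype has no replicate and no test. Relative to the mean of the other adult libraries, it was lowest for Chek2 (0.775, on 26 counts) and highest for Rad50 (1.16), and the other 8 genes lay between 0.923 and 1.08.

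Other genes of the pathway were read from the same fit, as 25 genes in 4 groups. Of these, 17 were lower and 6 higher in adults, and 2 were not called, with a median log2 fold change of -0.50 (over all genes tested, 44.7% lower, 41.7% higher and a median of -0.08). Of the 6, Kat5 and Ube2n had values below 0 under total-count scaling. Of the 4 groups, the 3 genes that extend resection had the lowest median (-3.49, 3 of 3 lower), although single genes of other groups fell further than Dna2 and Blm. Exo1, an exonuclease, went from 29.5 ± 3.82 CPM at E14.5 (n = 4) to 0.387 ± 0.00913 CPM in adults (n = 3). In the adult libraries 3 counts correspond to 0.118 to 0.130 CPM. The adult level of Exo1 thus rests on few counts, and its small SD is not a measure of precision. Exo1 was at 26.0, 33.0, 26.3 and 32.6 CPM in the E14.5 libraries, so the ages were far apart. Its log2 fold change was -6.24 (edgeR adjusted p = 6.9e-11, SE 0.18).

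Among 5 effectors of 53BP1, 4 fell and Shld2 was not called (log2 fold change -0.15, edgeR adjusted p = 0.31), with a median of -0.47. Over all genes tested, 44.7% were lower and 41.7% higher, with a median of -0.08. Mad2l2, which encodes the REV7 subunit of shieldin, fell most, from 41.3, 40.6, 43.3 and 37.8 CPM to 7.08, 5.64 and 5.94 CPM. That was a log2 fold change of -2.71 (edgeR adjusted p = 2.2e-10, SE 0.090). Genes of ATM activation were mixed, as were all genes tested, with 3 lower and 2 higher of 6 and a median of -0.16. Ppm1d, the phosphatase that reverses ATM signalling, went from 39.9 ± 1.76 to 20.3 ± 1.56 CPM (log2 fold change -0.97, edgeR adjusted p = 1.2e-07, SE 0.067). Atmin, a cofactor of ATM, went the other way, from 48.3 ± 1.69 to 97.2 ± 0.685 CPM (1.01, edgeR adjusted p = 2.5e-09, SE 0.045).

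Chromatin and ubiquitin factors were also divided, with 7 lower and 4 higher of 11 and a median of -0.25. All genes tested were divided as well, with 44.7% lower, 41.7% higher and a median of -0.08. Herc2, a large ubiquitin ligase that works with RNF8, had the largest rise of this group under TMM, from 125, 134, 138 and 147 CPM at E14.5 to 274, 282 and 289 CPM in adults (log2 fold change 1.05, edgeR adjusted p = 1.5e-08, SE 0.057). With GC and length offsets Herc2 was at 0.45, below Rnf169 (0.56) and Babam2 (0.46), and with total counts at 0.64. H2afx, which encodes the histone H2AX that ATM marks, was at 164, 152, 141 and 117 CPM at E14.5 and at 21.2, 18.4 and 20.0 CPM in adults. The ages were far apart (log2 fold change -2.85, edgeR adjusted p = 1.1e-09, SE 0.11). Within E14.5, H2afx was lowest in replicate 4, where 9 of the 10 genes were highest, and 10.2% of its exon bases lie under exons on the opposite strand. Atmin, Herc2, Ppm1d, Mad2l2 and Exo1 kept direction and call under the 23 other settings, though Atmin was at 0.60 with total counts and Exo1 at -3.04 on log2 of RPKM plus 0.5.

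**Figure D5:**
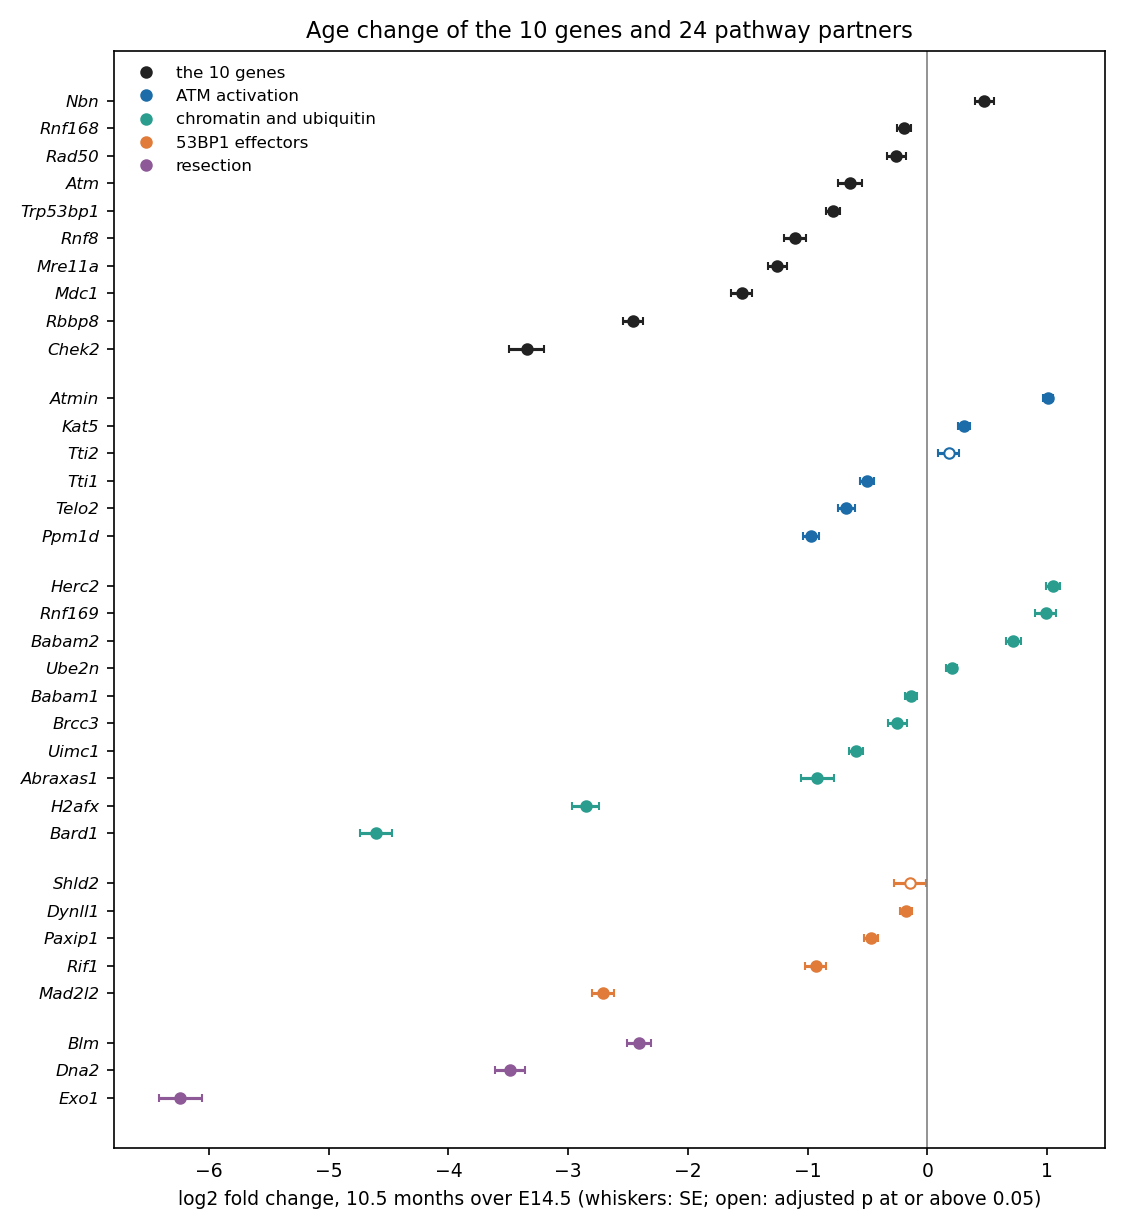
Log2 fold change, 10.5 months over E14.5 (x axis, whiskers: SE), of the 10 genes and of 24 pathway partners in 4 groups. Filled circles passed an edgeR adjusted p of 0.05 and open circles did not; the 10 genes run from 0.48 for Nbn to -3.35 for Chek2, and Exo1 lies furthest to the left, at -6.24.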

How the data were processed

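Total RNA from 7 pieces of mouse tissue labelled cortical plate was sequenced. Per the labels' protocols, E14.5 libraries were made with TruSeq RNA v2, a kit that does not mark strand, and adult libraries with TruSeq stranded mRNA. Tools listed are featureCounts 1.5.0, TopHat2 2.1.0 and bcl2fastq 1.8.4, with GRCm38 as the build, per the submitters' processing notes. The strand setting, annotation release and treatment of multiply mapped reads are not stated in any source used here. The authors deposited read counts, RPM and RPKM per gene. From the values, deposited RPM equal counts divided by the library total, and deposited RPKM use 1 length per gene.

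The deposited counts entered edgeR 4.0.16 under R 4.3.3 (quasi-likelihood F test, TMM, filterByExpr with minimum count 10 and total 15, age as the only term, Benjamini-Hochberg over all 20800 genes). The SE is the log2 fold change over the square root of F. The 2-fold rule used glmTreat. All 10 genes passed the filter, with at least 26 counts in each library. The members and gene lists were chosen with earlier results of these data known. Named partners were the largest called rise and fall of each group; the largest fall in the chromatin group is not reported here, and H2afx, Shld2, Kat5, Ube2n, Tti2, Rnf169, Babam2, Dna2 and Blm were named after their values were seen. Other settings comprised scaling by RLE, by upper quartile or by total counts, 2 other filters, DESeq2 1.42.0, limma 3.58.1 (voom, and trend on log2 of RPKM plus 0.5 or 0.1), omission of each library in turn, female libraries alone, a sex term, a replicate block and genes without opposite-strand exon overlap. Chosen after the data were seen were the 2-fold rule, protein-coding genes only, removal of mitochondrial genes, and per-library spline offsets (5 degrees of freedom) in GC content and gene length. GENCODE M21, on GRCm38, gave positions and overlaps for 53706 identifiers. The age fit was also tested on simulated data of 20800 genes. It recovered 40 of 67 genes at a 1.5-fold change, 57 of 67 at 2-fold and 66 of 66 at 4-fold, and made 11 false calls. No other genes were changed in the simulation, while 86.4% of genes were called in the real age comparison. The simulation therefore does not show how the fit or its scaling behaves when most genes change.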

Additional observations from a re-analysis of the deposited data

Results flagged for a closer look

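The summed level of the ganglionic eminence markers, Gsx2 and Nkx2-1, was far higher in E14.5 replicate 1 than in the other E14.5 libraries, at 5.49 CPM against 1.72, 1.29 and 1.09 CPM in replicates 2 to 4. The gap to the nearest library was 0.858 of the whole range, past the limit of Dixon's test. It was the only 1 flagged of 41 marker sums, partner levels and subunit ratios tested in this way, and chance alone flags about 1 in 20. The same gap was also computed for the 10 genes themselves, where the largest was 0.612 (Rbbp8) and none was flagged.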

How the results depend on the processing

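Of 227 values of the 10 genes under 23 other settings, 219 kept direction and call, 8 lost the call and none reversed. The number of genes called higher fell from 1 to 0 with total counts only and in limma-trend on logged RPKM with a pseudocount of 0.5 or 0.1 (Nbn at 0.064, 0.063 and 0.066, adjusted p = 0.45, 0.39 and 0.39), and Nbn was 0.25 with GC and length offsets. The number called lower fell from 9 to 4 among genes without opposite-strand exon overlap, where Mre11a, Trp53bp1 and Rbbp8 are left out by construction; it was 8 or 9 otherwise. Partners called lower numbered 12 to 21 and higher 4 to 7. Ube2n reversed with total counts (-0.21), RPKM plus 0.5 (-0.21) or 0.1 (-0.21) and the offsets (-0.090), Kat5 with the first 3 (-0.11, -0.11 and -0.11), and Tti2, not called in the main comparison, likewise (-0.24, -0.20 and -0.23). Without any 1 library, the log2 ratio differences ran from 1.70 to 1.78 for Nbn to Mre11a, 0.69 to 0.82 for Nbn to Rad50 and -1.07 to -0.89 for Mre11a to Rad50, and with females only they were 1.66, 0.68 and -0.98. The smallest exact permutation p there is 0.067 without an adult library and 0.10 otherwise, so no call was possible. Same-numbered replicates of the ages correlated by 0.0066, -0.028 and 0.019 in their deviations, so the numbers do not pair the samples. With the replicate block, 9 genes were lower and 1 higher, as without it. In the sex comparison none of the 10 was called under any of 8 other settings. The adult level of Chek2 is limited by its 26 to 40 counts.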

Other observations

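Of the 10 genes, 3 start within 1000 bases of a protein-coding gene on the opposite strand, and these neighbours, chosen after the data were seen, moved in different ways, given here as log2 fold changes of adult over E14.5. Ankrd49 starts 202 bases downstream of the start of Mre11a and went from 29.7 ± 1.08 CPM at E14.5 (n = 4) to 12.6 ± 0.758 CPM in adults (n = 3), or -1.24 (edgeR adjusted p = 1.5e-08, SE 0.068) beside -1.25 for Mre11a. Because their exons overlap on opposite strands, reads of the unstranded E14.5 libraries in the shared bases cannot be assigned to either. Npat, which encodes a regulator of histone gene transcription, starts 307 bases upstream of Atm and had 39.8 ± 3.50 and 39.5 ± 1.82 CPM, or -0.012 (edgeR adjusted p = 0.88, SE 0.073) beside -0.64 for Atm. Hscb, which encodes a co-chaperone of iron-sulphur cluster assembly, starts 202 bases upstream of Chek2 and went from 5.90 ± 0.293 to 3.83 ± 0.221 CPM, or -0.62 (edgeR adjusted p = 0.00019, SE 0.10) beside -3.35 for Chek2. The differences between neighbours were not tested.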
